A study of Mus musculus with 2 samples.

Results

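The LIM homeobox genes Lhx1, Lhx2, Lhx3, Lhx4, Lhx5, Lhx6, Lhx8, Lhx9, Lmx1a and Lmx1b, 10 of 21887 annotated protein-coding genes, were examined for Hdac1 and Hdac2 binding. They were chosen by name, with earlier results of these data known, as were the gene lists used below. Lhx1, a gene of the renal vesicle, and Lmx1b, a gene of the podocyte, were set beside the others. Chromatin immunoprecipitation with sequencing had been done on cultured nephron progenitor cells from kidneys of wild-type mouse embryos (E16.5). Each antibody, to Hdac1 or to Hdac2, was used for 1 library, and there was no treatment or mutant. Regions of mm10 enriched over background, called islands, were deposited with 1 value each, which is either a p-value or a q-value by the authors' reckoning. Without replicates, differences between the libraries have no test, read depth is unknown, and intervals cover counting error only.

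LIM homeodomain proteins are transcription factors that join a pair of LIM zinc-binding domains to a DNA-binding homeodomain. The LIM domains bind the adaptor Ldb1, through which these factors assemble in larger complexes. Lhx1 is required for kidney formation and for patterning of the renal vesicle, the first epithelial stage of the nephron. Lmx1b is needed for podocytes, the filtering cells of the glomerulus, and its human counterpart is mutated in nail-patella syndrome. The other members are best known from neurons, the pituitary, the limb and the gonad. Hdac1 and Hdac2 remove acetyl groups from histones as subunits of corepressor complexes. Islands show where the deacetylases were found and do not measure expression.

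The sequences just upstream of 5 members are given first because they span the range of CpG content at these promoters, and because the islands over them differ. Each is the 250 bases before the start in RefSeq (GRCm38.p6, the assembly of mm10), read 5′ to 3′ on the minus strand that carries the gene, with CpG dinucleotides in capitals. The Lhx1 stretch is chr11:84525535-84525784, the Lmx1b stretch chr2:33641099-33641348 and the Lhx4 stretch chr1:155742028-155742277. The Lhx9 stretch is chr1:138842445-138842694 and the Lhx8 stretch chr3:154330561-154330810.
Lhx1: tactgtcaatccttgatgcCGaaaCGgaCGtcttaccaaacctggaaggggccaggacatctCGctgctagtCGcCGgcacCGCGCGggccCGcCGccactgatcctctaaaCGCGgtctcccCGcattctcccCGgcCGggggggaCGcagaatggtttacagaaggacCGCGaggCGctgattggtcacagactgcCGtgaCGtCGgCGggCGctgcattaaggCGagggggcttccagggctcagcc
Lmx1b: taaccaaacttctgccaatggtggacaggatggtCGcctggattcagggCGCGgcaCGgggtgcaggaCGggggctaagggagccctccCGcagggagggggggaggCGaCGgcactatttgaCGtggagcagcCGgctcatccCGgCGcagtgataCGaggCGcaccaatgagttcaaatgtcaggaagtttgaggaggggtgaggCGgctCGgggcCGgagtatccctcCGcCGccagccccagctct
Lhx4: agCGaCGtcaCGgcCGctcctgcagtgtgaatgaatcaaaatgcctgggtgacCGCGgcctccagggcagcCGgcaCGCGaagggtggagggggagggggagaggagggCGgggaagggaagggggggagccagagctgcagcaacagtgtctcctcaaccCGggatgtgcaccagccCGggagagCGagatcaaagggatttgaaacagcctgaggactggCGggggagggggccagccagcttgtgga
Lhx9: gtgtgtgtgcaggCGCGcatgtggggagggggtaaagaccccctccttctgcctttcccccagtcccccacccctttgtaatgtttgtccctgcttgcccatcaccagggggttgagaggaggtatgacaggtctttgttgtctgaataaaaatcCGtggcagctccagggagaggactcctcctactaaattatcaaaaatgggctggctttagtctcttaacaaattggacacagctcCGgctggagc
Lhx8: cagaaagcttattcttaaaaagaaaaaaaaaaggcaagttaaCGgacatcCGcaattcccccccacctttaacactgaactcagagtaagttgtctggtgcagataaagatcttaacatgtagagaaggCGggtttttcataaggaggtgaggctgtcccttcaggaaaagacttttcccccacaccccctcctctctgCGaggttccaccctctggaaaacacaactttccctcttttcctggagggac
The Lhx1 stretch holds 26 CpG, the Lmx1b stretch 19 and the Lhx4 stretch 14, against 4 each in those of Lhx9 and Lhx8. Islands of both antibodies covered the starts of Lhx1, Lmx1b, Lhx4 and Lhx8, so CpG-rich and CpG-poor starts were among them. At Lhx9 an Hdac1 island lay beside the start and the Hdac2 island lay farther upstream.

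At Lhx1, islands of both antibodies lay over the start of the gene. The gene spans 84517975 to 84525534 on chromosome 11 (7.56 kb) and is read from the higher coordinate to the lower. An Hdac1 island of 1.6 kb, from 84525001 to 84526600, covered the start with a value of 1.23e-19. A further Hdac1 island of 1.8 kb (84522401 to 84524200, value 6.63e-10) lay wholly within the gene, 1.33 kb from the start. A single Hdac2 island of 3.6 kb (84523601 to 84527200, value 1.82e-09) reached across both: it took in all of the Hdac1 island at the start and 33.3% of the one within the gene. It was the only Hdac2 island within 100 kb. An end of the noncoding gene Lhx1os lies 0.126 kb from the start of Lhx1. The islands at that start are also at this end of Lhx1os, so which of the genes they belong to cannot be told apart. The remaining Hdac1 island within 100 kb, of 3.4 kb (value 1.61e-31), lay 3.38 kb from Lhx1 at an end of the neighbour Aatf.

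Islands were more numerous at Lmx1b, whose gene spans 33560965 to 33641208 on chromosome 2 (80.2 kb) and is also read toward lower coordinates. The Hdac1 island over its start measured 4.6 kb (33639001 to 33643600) with a value of 1.9e-52, and the Hdac2 island measured 2.2 kb (33639201 to 33641400) with a value of 1.94e-05. The Hdac2 island lay wholly within the Hdac1 island, on its downstream side. Within the gene there were 4 further Hdac1 islands, the widest of 5.8 kb (33628401 to 33634200, value 3.18e-41), which was wider than the island at the start. An Hdac2 island of only 0.8 kb (33628801 to 33629600, value 3.49e-12) lay inside it. About 47.1 kb from the start, an Hdac1 island of 2.4 kb (value 2.54e-19) shared 1.8 kb with an Hdac2 island 2.6 kb wide (value 7.4e-07). The Hdac1 islands of 1.4 kb and 1.2 kb between these had no Hdac2 counterpart. The lowest of the Hdac2 values at Lmx1b was therefore inside the gene and not at its start. The noncoding genes C130021I20Rik and Gm39790 also have an end at the islands over the start.

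The strength of an island is given below as the percentage of islands in the same list with a higher, that is weaker, value. At the start of Lhx1 the Hdac1 island was at 55.4% and the Hdac2 island at 60.5%. At the start of Lmx1b the Hdac1 island was at 79.7% and the Hdac2 island at 16%. The order of the genes was thus opposite in the libraries, Lmx1b above Lhx1 for Hdac1 and below it for Hdac2, without a replicate to give the error of either.

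**Figure D1:**
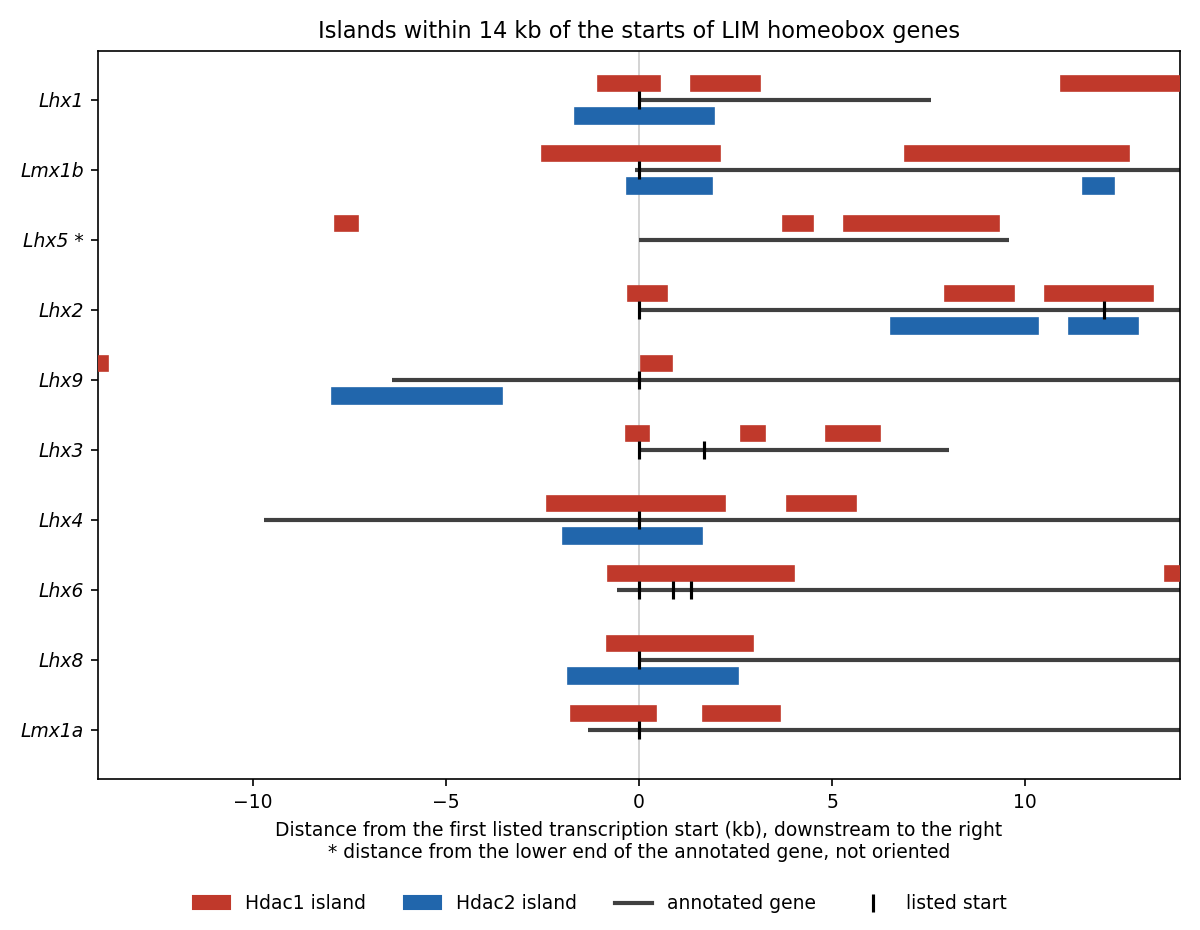
Islands near the starts of the 10 LIM homeobox genes, drawn to scale along the distance from the first listed transcription start in kb (transcription runs to the right; Lhx5, with no listed start, is placed from its lower end). Red bars are Hdac1 islands, blue bars Hdac2 islands, grey lines the annotated genes and ticks the listed starts; blue bars meet a start at Lhx1, Lmx1b, Lhx2, Lhx4 and Lhx8.

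Across the family, Hdac1 islands were present in the gene body of all 10 members, where 65.5% of all protein-coding genes had such an island. In 8 of the 10 there were 2 or more, against 18.6% of all genes. Any island that overlapped the annotated gene counts here, so islands over starts and gene ends are included. Hdac2 islands were in the body of 7 members, against 38.4% of all genes, and were missing from Lhx3, Lhx5 and Lhx6. The members had a median length of 24.2 kb against 17.2 kb for all genes, and ranged from 7.56 kb at Lhx1 to 161 kb at Lmx1a. Hdac1 islands covered a median of 17.8% of the gene body (3.38% at Lhx9 to 50.1% at Lhx5) against 3.18% over all genes. For Hdac2 the median was 6.72%, from 0 to 25.6% at Lhx1, against 0 over all genes.

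Within 1 kb of either gene end, 8 members had an Hdac1 island and 4 an Hdac2 island, compared with 60.7% and 31.7% of all genes. Both were at an end of Lhx1, Lmx1b and Lhx8, 3 of 10 members where 30.7% of all genes had both. With so few members, these shares are near the background. Lhx2, Lhx3, Lhx5, Lhx6 and Lmx1a had Hdac1 alone at an end, and Lhx4 had neither, which was so for 38.3% of all genes. Lhx9 was the only member with Hdac2 and no Hdac1 at an end, a combination found at 0.996% of all genes.

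The gene ends of Lhx4 and Lhx9 are not their listed starts. The annotated spans reach farther upstream than these starts, by 9.7 kb at Lhx4 and 6.39 kb at Lhx9. At Lmx1a the listed start lies 1.33 kb inside the span, and the same Hdac1 island covered the gene end and the start. Counted within 1 kb of a listed RefSeq start, all 9 members with such a start had an Hdac1 island, compared with 61.4% of the 17492 protein-coding genes with one, and 5 had an Hdac2 island, compared with 31.7%. The 5 were Lhx1, Lhx2, Lhx4, Lhx8 and Lmx1b, and each of them had Hdac1 as well, where 31.1% of all such genes had both. No start was listed for Lhx5.

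At these starts the Hdac1 islands were mostly weaker than those of other genes. The median strength was 55.4% for the 9 members, from 31.9% at Lhx9 to 83% at Lhx3, and 7 of the 9 lay below the median of 79.3% over the 10738 genes with an Hdac1 island at a start. Only Lhx3 and Lmx1b were above it. Their width did not follow this order: the median was 2.8 kb, against 2.4 kb for all such genes, with the widest at Lhx6 (4.8 kb) and the narrowest at Lhx3 (0.6 kb). The Hdac2 islands at the 5 starts had strengths of 94.9% at Lhx4, 60.5% at Lhx1, 23.8% at Lhx2, 16% at Lmx1b and 3% at Lhx8, around a median of 48.5% over all genes with one. Neighbours in these orders, such as Lhx1 (55.4%) and Lmx1a (48%) for Hdac1, cannot be ranked without replicates.

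**Figure D2:**
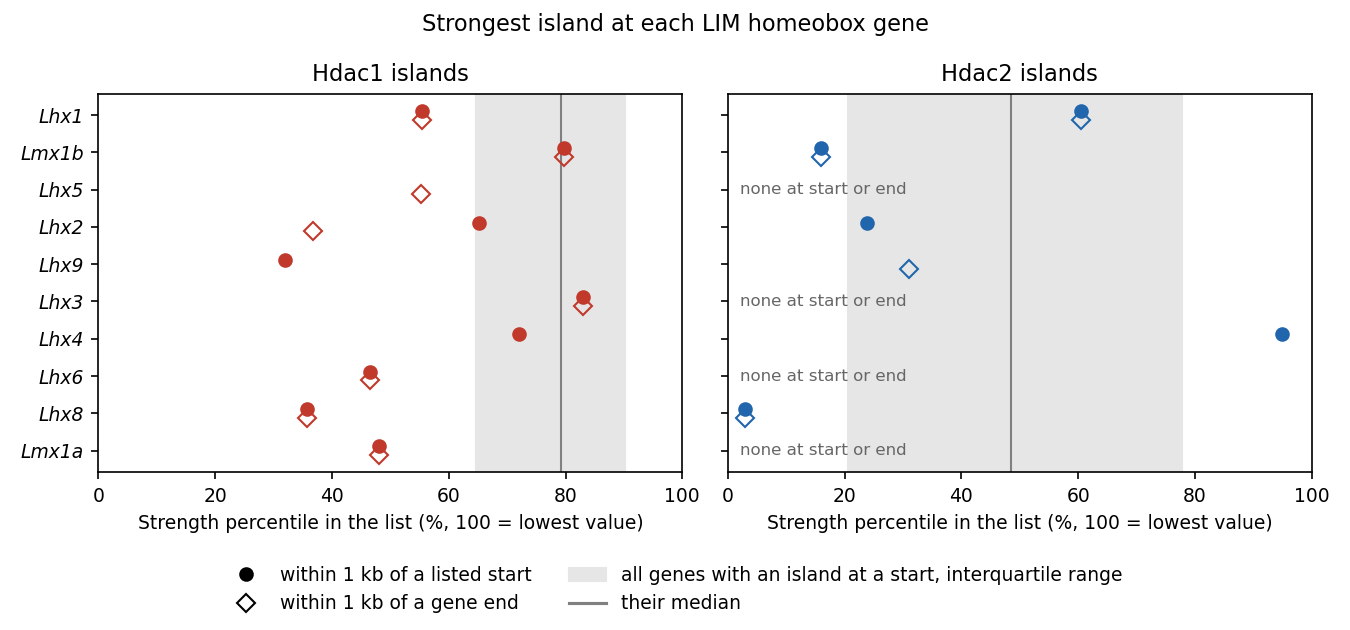
Strength of the strongest island at each gene, as the percentage of islands in the same list with a weaker value (x axis), for Hdac1 on the left and Hdac2 on the right; filled circles are islands within 1 kb of a listed start and open diamonds those within 1 kb of a gene end. The grey band is the interquartile range and the line the median of all genes with an island at a start; most Hdac1 circles lie left of the median of 79.3%, and the Hdac2 circle of Lhx4 lies at 94.9%.

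The members form 5 pairs of close relatives, and in each pair Hdac2 was at a listed start of 1 gene and at none of the other. This pattern was noticed after the values were seen. Of all genes with a listed start, 31.7% had Hdac2 there, and how often pairs of genes split was not tested. The genes with Hdac2 were Lhx1 against Lhx5, Lhx2 against Lhx9, Lhx4 against Lhx3, Lhx8 against Lhx6, and Lmx1b against Lmx1a. Lhx5 counts here although its start is not listed, because no Hdac2 island lay within 100 kb of it. At gene ends in place of starts 4 pairs were split, with Lhx9 and not Lhx2 holding the island and neither Lhx3 nor Lhx4. With the stronger 50% of Hdac2 islands, 2 pairs were split, since only Lhx1 and Lhx4 kept an island at a start. Scored by an Hdac2 island anywhere in the gene body, 3 pairs were split.

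Lhx5, which acts with Lhx1 in the development of Purkinje cells, spans 120431886 to 120441457 on chromosome 5. Its Hdac1 island of 4.0 kb (120437201 to 120441200, value 1.63e-19) filled the upper part of the gene, and an island of 0.8 kb (value 2.87e-07) lay beside it. The larger island was at the upper gene end, which may or may not be the start, since no start is listed. Its strength, 55.2%, was close to the 55.4% of the island over the start of Lhx1. The nearest Hdac2 island was 137 kb away, whereas at Lhx1 the Hdac2 island lay over the start. Hdac1 islands near Lhx5 also lay at ends of the neighbours Plbd2 (1.4 kb, 1.29e-73) and Slc8b1 (1.4 kb, 8.1e-12), likewise without Hdac2.

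Lhx2, a factor of eye, hair follicle and forebrain development, spans 38339271 to 38369737 on chromosome 2 and has 2 listed starts. The first was covered by a narrow Hdac1 island of 1.0 kb (38339001 to 38340000, value 2.08e-11) and no Hdac2. The second start, inside the gene, lay under an Hdac1 island of 2.8 kb (38349801 to 38352600, value 2.69e-28), with an Hdac2 island 1.8 kb wide (38350401 to 38352200, value 3.56e-06) wholly within it. So it was the internal start that carried both. A neighbouring Hdac1 island, 2.31 kb from this start and wholly inside an Hdac2 island, was among the weakest of its list (0.000264), as was that Hdac2 island (0.00382). Ends of the noncoding gene Gm27197 lie at these internal islands.

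Beyond Lhx2, at a distance of 48.1 kb, lay the strongest island near any member. The Hdac1 island (38417801 to 38418600) was 0.8 kb wide with a value of 5.63e-228, a strength of 99.3%, and shared 0.6 kb with an Hdac2 island of 1.0 kb (38418001 to 38419000, value 1.9e-20, strength 95.8%). No annotated gene end was within 1 kb of either. Of the 2800 Hdac1 islands no wider than this Hdac1 island, 10 including it had a value as low. The Hdac2 island stood out less: of the 1211 Hdac2 islands no wider than it, 104 including it had a value as low.

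Lhx9, a factor of gonad formation and the close relative of Lhx2, spans 138825186 to 138848839 on chromosome 1. Its Hdac1 and Hdac2 islands at the gene lay apart. The Hdac1 island of 0.8 kb (138841601 to 138842400, value 1.36e-10) began 0.044 kb downstream of the listed start. The Hdac2 island of 4.4 kb (138846001 to 138850400, value 8.53e-07) lay over the upstream gene end, 3.56 kb from that start, and overlapped no Hdac1 island. Within 100 kb there were 4 Hdac2 islands covering 14 kb and 6 Hdac1 islands covering 9.8 kb. Only the islands of 2.0 kb and 2.6 kb at about 63.4 kb from the gene overlapped each other. Lhx9 had the highest Hdac2 coverage of the family and, with Lhx8, was a member at which Hdac2 islands covered more than Hdac1 islands.

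Lhx3 and Lhx4 act together in the pituitary and in motor neurons. Lhx3 spans 26200212 to 26208249 on chromosome 2. It carried 3 narrow Hdac1 islands, of 0.6 kb at the start (value 3.58e-60) and of 0.6 kb and 1.4 kb farther in (values 8.78e-26 and 2.13e-23), and no Hdac2. The island at the start is also within 1 kb of an end of Qsox2, which lies 0.875 kb from Lhx3. Hdac2 islands were present at ends of its neighbours: at Qsox2 (0.8 kb, 4.38e-09), Tmem250-ps (1.6 kb, 6.03e-08) and Nacc2 (1.4 kb, 4.77e-07), each over an Hdac1 island with a strength of at least 89.1%. The nearest of them was 28.4 kb from Lhx3.

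Lhx4 spans 155698031 to 155751726 on chromosome 1, and its listed start lay under broad islands of both antibodies. The Hdac1 island measured 4.6 kb (155739801 to 155744400, value 1.54e-37) and the Hdac2 island 3.6 kb (155740401 to 155744000, value 4.96e-19). The Hdac2 island lay wholly within the Hdac1 island and was the strongest Hdac2 island in the body of any member, at 94.9%. Its Hdac1 partner was at 72%, below the median for starts. Further Hdac1 islands of 1.8 kb and 1.4 kb within the gene (values 1.91e-13 and 4.29e-22) had no Hdac2.

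Lhx6 and Lhx8 specify neurons of the ventral forebrain, and Lhx8 also acts in oocytes and teeth. Lhx6 spans 36081950 to 36105992 on chromosome 2, and an Hdac1 island of 4.8 kb (36101401 to 36106200, value 4.23e-15) covered its 3 listed starts. It was the widest Hdac1 island at any member's start, with a strength of only 46.6%. No Hdac2 island lay within 100 kb of Lhx6, and the nearest was at 101 kb. Lhx8 spans 154306288 to 154330560 on chromosome 3, and each library had a single island within 100 kb of it, over the start. The Hdac1 island (3.8 kb, 154327601 to 154331400, value 1.38e-11) and the Hdac2 island (4.4 kb, 154328001 to 154332400, value 0.00183) shared 3.4 kb. The Hdac2 island is among the weakest of its list, at 3%, so the presence of Hdac2 at Lhx8 rests on a weak call. An end of the noncoding gene AI606473 lies 0.261 kb from Lhx8, at the same islands.

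Lmx1a, a factor of dopamine neurons and the inner ear, spans 167688230 to 167848741 on chromosome 1. Its start carried an Hdac1 island of 2.2 kb (167687801 to 167690000, value 1.1e-15), and islands of 2.0 kb, 1.2 kb and 2.0 kb followed within the gene (values 1.86e-08, 1.95e-15 and 6.48e-07). The start islands at Lmx1b and Lmx1a thus had strengths of 79.7% and 48%. The only Hdac2 island within 100 kb measured 5.0 kb (167824201 to 167829200, value 1.53e-12, strength 81.1%), lay 135 kb from the start inside the gene and overlapped no Hdac1 island. It was the widest Hdac2 island near any member.

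**Figure D3:**
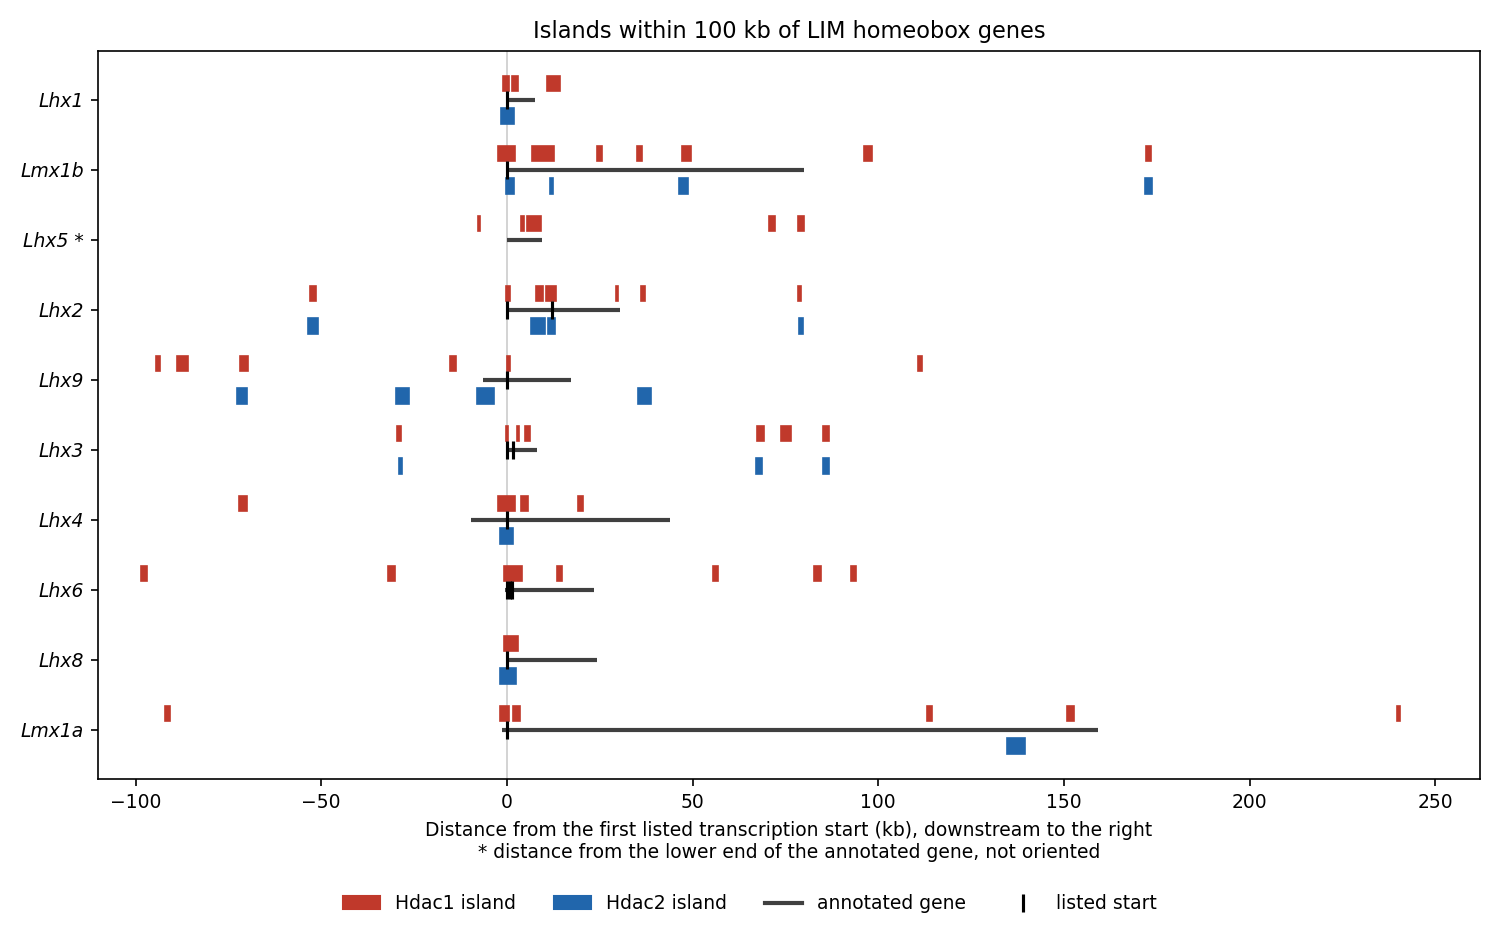
Every Hdac1 (red) and Hdac2 (blue) island within 100 kb of the 10 genes, drawn to scale along the distance from the first listed start in kb (Lhx5 from its lower end, not oriented), with the annotated gene as a grey line and listed starts as ticks. No blue bar lies near Lhx5 or Lhx6, the red and blue bars of Lhx9 mostly lie apart, and Lhx8 has 1 bar of each colour.

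Within 100 kb, all 10 genes had an Hdac1 island and 8 an Hdac2 island, shares near the 85.4% and 85.5% of all genes. They had 53 Hdac1 islands and 19 Hdac2 islands in total. Of the Hdac1 islands 9 were at an end of a member, 18 in a body but not at an end, and 26 in the flanks. Of these 26, 13 were at an end of a protein-coding neighbour. The islands at neighbours' ends were stronger, with a median strength of 69% (17.3 to 92.6%), than those at the members' own ends, with a median of 48% (35 to 83%). The ranges overlap, and the islands share 1 library, so this is a description. Islands at the listed starts of Lhx4 and Lhx9 and at the internal start of Lhx2 count here as body islands. For the strongest Hdac1 island within 1 kb of a listed start, the median over members was 55.4%. An Hdac2 overlap was found for 16 of the 53 Hdac1 islands (30.2%, 95% Wilson interval 19.5 to 43.5%), where 39.8% of all Hdac1 islands had one. For the 19 Hdac2 islands, 15 overlapped Hdac1 (78.9%, interval 56.7 to 91.5%), against 59.4% of all Hdac2 islands. The 4 Hdac2 islands without Hdac1 were those of 3.4 kb, 4.4 kb and 3.6 kb at Lhx9 and the 5.0 kb island in Lmx1a.

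As bases covered within 100 kb, the members were close to other genes for Hdac1. The median was 9.8 kb, from 3.8 kb at Lhx8 to 19 kb at Lmx1b, against 9.4 kb over all genes. For Hdac2 it was 4.1 kb, from 0 at Lhx5 and Lhx6 to 14 kb at Lhx9, against 5.8 kb. As a share of the window, Hdac1 coverage at Lmx1b was 6.78%, above that of 71.2% of genes, and at Lhx1 3.28%, above that of 44.3%. Hdac2 coverage was 2.64% at Lmx1b and 1.73% at Lhx1, above that of 53.9% and 37.5% of genes. Neither gene lay in a neighbourhood with unusually high coverage.

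**Figure D4:**
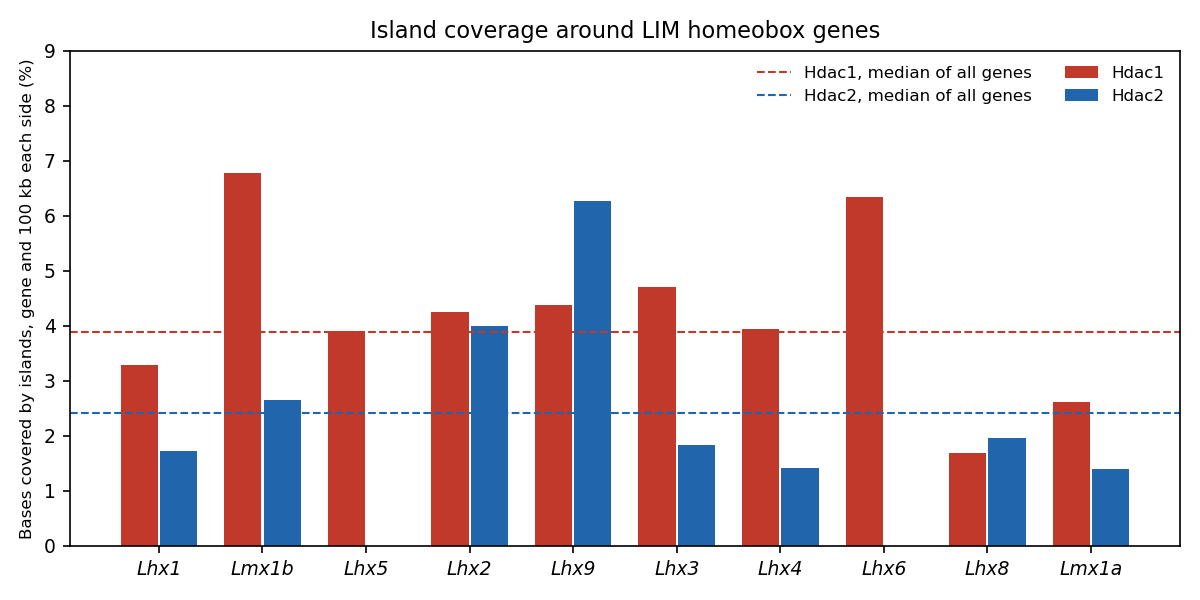
Share of bases covered by Hdac1 (red) and Hdac2 (blue) islands in the window made of each gene and 100 kb on each side (y axis, percent), 1 library each and so without error bars; dashed lines are the medians of all genes, 3.88% for Hdac1 and 2.41% for Hdac2. The red bars of Lmx1b (6.78%) and Lhx6 (6.34%) are the highest, and the blue bar of Lhx9 (6.26%) stands above its red bar.

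The promoters of the family were richer in CpG than most, as was asked because islands over promoters followed CpG content in these libraries. RefSeq lists 13 promoters of 300 bp (250 bases before and 50 after a start) for the 9 members with a start. Their median CpG observed over expected was 0.64, against 0.38 over all 32851 promoters, and their median GC content 63.3% against 52.7%. An Hdac1 island overlapped 12 of the 13 and an Hdac2 island 5, against 45.5% and 23.5% of all promoters. The same 5 had both, where 22.7% of all promoters did. The second start of Lhx3 was the promoter without Hdac1, and at Lhx9 the island reached only the edge of the window. In all promoters with a ratio of 0.8 to 1.0, 97.2% had Hdac1 and 57.1% had Hdac2, and of 3 member promoters, at Lhx1 and Lhx2, 3 and 2 did. In those with a ratio of 0.6 to 0.8, 87.6% had Hdac1 and 41.6% had Hdac2, and of 5 member promoters 4 and 2 did. At 0.4 to 0.6 the shares were 52% and 20.2%, and of 3 member promoters 3 had Hdac1 and 0 had Hdac2. In those with a ratio of 0.2 to 0.4, 17% had Hdac1 and 6.61% had Hdac2. Lhx8 (0.24) and Lhx9 (0.26), the members in that range, both had Hdac1, and Lhx8 had Hdac2 too. Lhx1 had the highest ratio of the family, 0.96, and Lmx1b had 0.77.

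**Figure D5:**
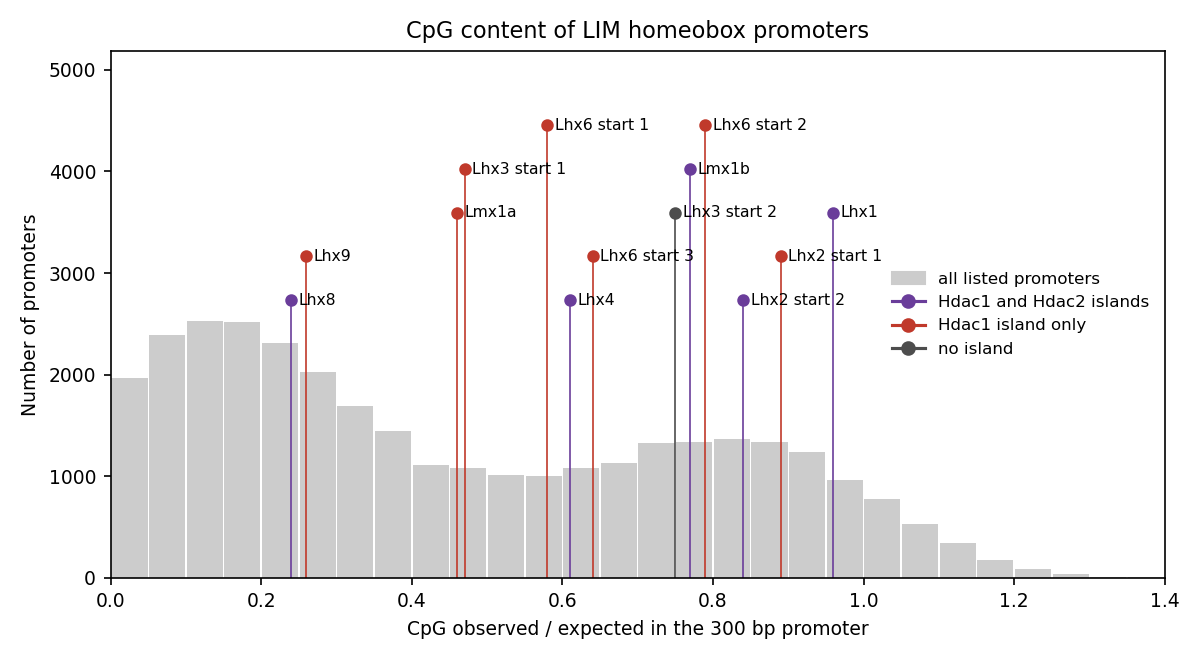
Distribution of CpG observed over expected in all 32851 listed promoters of 300 bp (grey bars, number of promoters on the y axis), with the 13 promoters of LIM homeobox genes marked; marker height has no meaning. Purple marks promoters with both islands, red those with Hdac1 only and dark grey the second Lhx3 start with none; Lhx8 and Lhx9 lie at 0.24 and 0.26 and Lhx1 at 0.96.

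Short motifs in the same windows were searched on both strands. GGGCGG, the GC box, was in 7 of 13 member promoters and 35.7% of all promoters, CCAAT in 5 and 37.4%, and TATAAA in 2 and 13.6%. TAATTA, a core that LIM homeodomains and many other homeodomains bind, was in none of the 13 and in 5.29% of all. CACGTG was in none and in 7.15% of all. The Lhx1 and Lmx1b promoters held CCAAT and not GGGCGG, and that of Lhx4 the reverse.

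Among genes that work with LIM homeodomain proteins, the Ssbp genes had islands with lower values than any member of the family at an end or a listed start. Of 10 cofactor and LIM-only genes, 7 had Hdac1 at an end, 6 had Hdac2 and 5 had both, where 60.7%, 31.7% and 30.7% of all genes did. Ssbp2, Ssbp3 and Ssbp4, which encode partners of Ldb1, had Hdac1 values of 4.96e-218, 6.36e-243 and 7.94e-301 and Hdac2 values of 1.75e-38, 6.94e-22 and 2.57e-98. The lowest values at an end of any of the 10 members were 3.58e-60 for Hdac1 and 1.82e-09 for Hdac2, and the Hdac2 island at the listed start of Lhx4 had 4.96e-19. Lmo4, a LIM-only competitor for Ldb1, had islands of 7.8 kb (2.06e-206) and 4.4 kb (2.66e-19). Ldb1 itself had an Hdac2 island at an end (3.0 kb, 3.05e-13) and Hdac1 only inside the gene, and Lmo3 had no island at an end or in its body. Of the LIM homeobox genes outside the named family, Isl1 had both (1.6 kb, 6.45e-26, and 2.4 kb, 6.15e-08) and Isl2 had Hdac1 alone (7.2 kb, 2.5e-30).

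Genes around Lhx1 in the renal vesicle had Hdac1 at an end in 12 of 14 cases and Hdac2 in 6, where 60.7% and 31.7% of all genes did. Those with both were Wnt4, Ctnnb1, Dll1, Jag1, Bmp2 and Ccnd1. Wnt4, the signal for epithelial conversion, had values of 2.03e-85 and 6.22e-10, and Dll1, a Notch ligand of the renal vesicle, 2.53e-43 and 1.83e-05. Pax2 and Pax8, which act upstream of Lhx1 in the early kidney, had Hdac1 at an end (2.56e-171 and 8.09e-22) and no Hdac2 there. Of the 12 genes with Hdac1 at an end, 8 had a lower value than the 1.23e-19 of Lhx1 and 4 a higher one. The 4 were Pou3f3 (3.35e-19), Wnt9b (3.44e-17), Osr2 (9.05e-13) and Fgf8 (5.34e-07), and those close to Lhx1 cannot be ranked against it.

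Genes around Lmx1b in the podocyte had Hdac1 at an end in 9 of 14 cases, near the 60.7% of all genes, and Hdac2 in 8, where 31.7% of all genes did. The transcription factor genes Wt1, Tcf21, Foxc1 and Foxc2 had both, with Hdac1 widths of 9.2 kb to 16.2 kb, each wider than the 4.6 kb at Lmx1b. Among genes that Lmx1b is thought to regulate, Cd2ap had both (2.56e-60 and 2.28e-11), and the collagen genes Col4a3 and Col4a4 had none at an end. Col4a4 had 3 Hdac2 islands and 1 Hdac1 island inside the gene.

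Other genes with islands most like those of Lhx1 and Lmx1b were found over 4 measures, the percentile of strength and of width of the strongest island at a gene end in each library. The closest to Lhx1 were Rem2, Irak3 and Plekha7, at distances of 9.55, 16.6 and 16.9 percentile points. The closest to Lmx1b were Actn4, Inafm2 and Rptor, at 5.69, 6.45 and 6.58. Rem2 had islands 1.6 kb wide for Hdac1 (1.26e-17) and 3.8 kb wide for Hdac2 (2.11e-10), and Actn4 had 10.8 kb (2.21e-53) and 2.2 kb (2.69e-05). The likeness rests on 2 libraries.

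Islands cannot show which cells were present, and no expression was measured here. At an end of the labelled cell type's markers Six2, Cited1, Eya1, Sall1, Osr1, Meox1 and Crym, 7 of 7 had Hdac1 and 5 had Hdac2, where 60.7% and 31.7% of all genes did. For markers of other kidney cells the numbers were 2 and 1 of 4 for ureteric bud, 4 and 2 of 4 for stroma and 1 and 0 of 4 for endothelium, lists too short to set apart from those shares. How far such cells contribute to the islands at LIM homeobox genes was not tested.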

How the data were processed

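Libraries were prepared from 500 pg of immunoprecipitated DNA with 12 amplification cycles, and more where needed, per the labels' protocols. The names of the deposited lists carry a larger microgram amount for Hdac2 than for Hdac1, without saying of what. Control immunoprecipitations (IgG and H3K4me3) were run and are not used here. The authors named SICER, BWA 0.7.5a, bedtools 2.17 and SAMtools 1.3.1, with build mm10, per the submitters' processing notes; SICER's settings and its background library were not given in these sources. SICER joins windows into islands, so edges are coarse: starts and widths are multiples of 200 bp. The deposited lists hold 30182 Hdac1 and 20307 Hdac2 islands, with the authors' significance per island, as a p-value or a q-value (not stated which). These values are used only to rank within 1 list.

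Positions are 1-based. Genes are RefSeq GRCm38.p6 spans, starts come from the RefSeq promoter table, and islands counted with at least 1 bp of overlap. No test across genes was made, because each antibody has 1 library. The rule for named genes took the 10 members, lists of related genes and of cell type markers, neighbours within 100 kb whose ends carry islands, and the 3 genes most like Lhx1 and Lmx1b. The members and lists were chosen with earlier results of these data known, and some listed genes are counted but not reported singly. The software was scipy 1.17.1, pandas 2.3.3, matplotlib 3.10.9 and numpy 2.4.6 under Python 3.11.15; overlap counts were tested on simulated data against bedtools 2.31.1. Planned protein comparisons of the pairs were not run.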

Additional observations from a re-analysis of the deposited data

How the results depend on the processing

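Counts are called moved beyond 1.5 times, and shares beyond their Wilson interval; 23 of 36 alternatives stayed within this. Windows of 500 bp, 2 kb or 5 kb and merging of islands within 1 kb left the numbers with Hdac1 (8), Hdac2 (4) and both (3) at a gene end as they were. With the stronger 50% of each list, 4 members had Hdac1 at an end, 1 had Hdac2 and 1 (Lhx1) had both, and Hdac2 was in 4 gene bodies; the median covered within 100 kb was 5.2 kb (Hdac1) or 0.8 kb (Hdac2), and 2 pairs of relatives were split by Hdac2 at starts. With listed starts in place of ends, 5 members had both. Where the island had to cover 50% of the window, 5 had Hdac1 at an end. Islands wholly inside a gene were found for Hdac2 in 4 members. With 200 kb either side, the medians were 15.2 kb and 8.8 kb. Scored by gene body, 3 pairs were split; the settings for pairs were chosen after seeing the data. The stronger 50% holds fewer islands by construction. Asking for 50% of the window, or for islands wholly inside a gene, can likewise only lower a count. A flank of 200 kb can only raise the bases covered. The cause of the other changes was not tested. No paired analysis was possible because each antibody has 1 library. The depth of the libraries is unknown, so an absent island may be a missed one.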
